A study of Mus musculus with 610 samples.

Results

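Bhlhe40 and Cdh1 are 2 of the 48 genes and receptor junctions measured by single-cell RT-PCR in 610 thymus cells. Both were selected on their shares and levels in these same 4 populations, so their shares and levels are described here without a test. The tests concern what else was detected in the same cells. A gene was called detected when its threshold cycle (Ct) was below 24, the highest value in the data, and its level is 24 minus Ct, in PCR cycles, so that a higher level means more transcript.

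Bhlhe40 encodes a basic helix-loop-helix transcription factor that binds E-box DNA and mostly represses, and it is known for its part in cytokine control in T cells. Cdh1 encodes E-cadherin, a calcium-dependent adhesion protein that joins epithelial cells, is also made by some dendritic cells, and is bound by the integrin CD103 and the receptor KLRG1 on lymphocytes. The early thymus holds precursors without CD4 and CD8, among them precursors of gamma delta T cells that make IL-17 (Tgd17 cells), beside innate lymphoid cells and a few myeloid cells.

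The cells came from the thymus of young mice and were sorted as live, negative for TCRd and lineage markers and positive for CD44. B6 DN1d cells were from C57BL/6J mice at postnatal days 7 to 10 and were CD25-, CD24+ and cKit-, with 72, 70 and 81 cells in 3 runs. Tcrd-/- DN1d cells had the same gate and age but came from B6.129P2-Tcrd tm1Mom mice (B6.Tcrd-/-), with 86 cells in 1 run. Rag1-/- cKit- cells came from B6.129S7-Rag1 tm1Mom mice (B6.Rag1-/-) at postnatal days 0 to 2 and were CD25- and cKit- with no CD24 gate, with 89, 52 and 82 cells in 3 runs. B6 DN2 cells were from C57BL/6J mice at postnatal days 7 to 10 and were CD25+ and cKit+, with 78 cells in 1 run. The run, read from the sample titles, is the replicate throughout. No run held cells of more than 1 group, and the Rag1-/- and B6 groups also differed in age and in the CD24 gate, so genotype, age, gate and run cannot be told apart. The labels name no animals, so whether runs are separate animals is unknown and a p-value covers run-to-run spread of either kind, possibly technical.

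Gapdh was detected in all 610 cells. The mean number of assays detected per cell ran from 19.2 to 20.3 over the B6 DN1d runs and from 21.6 to 24.3 over the Rag1-/- runs, and was 28.5 in DN2 and 30.9 in Tcrd-/- DN1d cells. Tcf7, a T lineage factor, was detected in 135 of 223 B6 DN1d cells, 79 of 86 Tcrd-/- DN1d cells, 214 of 223 Rag1-/- cells and 78 of 78 DN2 cells. Cpa3, a gene of mast cells and early progenitors, was detected in 78 of 78 DN2 cells and in 0 of 223 Rag1-/- cells.

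Bhlhe40 was most frequent in Rag1-/- cKit- cells. It was detected in 43 of 89, 35 of 52 and 52 of 82 Rag1-/- cells, or 48.3%, 67.3% and 63.4% of the 3 runs. In B6 DN1d cells it was detected in 12 of 72, 11 of 70 and 21 of 81 cells, or 16.7%, 15.7% and 25.9%. The mean over runs was 59.7% ± 10.0 (SD, n = 3) in Rag1-/- and 19.4% ± 5.64 (SD, n = 3) in B6 DN1d cells. The runs of the 2 groups did not overlap, which was not particular to Bhlhe40, since the same held for most of the 48 assays. Among other assays whose runs did not overlap, Cdk6, Mcm2 and Tcf7 were more frequent in Rag1-/- runs, and Myb, Smo and Etv5 less frequent. The single DN2 run had Bhlhe40 in 33 of 78 cells, 42.3% (95% exact binomial interval 31.2 to 54), and the single Tcrd-/- run in 9 of 86 cells, 10.5% (4.90 to 18.9). In order of share the groups were Rag1-/-, DN2, B6 DN1d and Tcrd-/- DN1d. Of the 3 Rag1-/- runs 1 lay inside the DN2 interval and 2 above it, and of the 3 B6 DN1d runs 2 lay inside the Tcrd-/- interval and 1 above it. These intervals cover counting error in 1 run and not the spread between runs. The DN2 interval lay above all 3 B6 DN1d runs.

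Where Bhlhe40 was detected, its level varied little between runs. The mean level in detected cells was 8.57, 8.0 and 8.89 cycles in the B6 DN1d runs, 9.52, 9.34 and 9.21 in the Rag1-/- runs, 8.04 in DN2 and 9.36 in Tcrd-/- cells. The lowest Rag1-/- run was thus above the highest B6 DN1d run, and the group means differed by 0.87 cycles. Relative to Gapdh in the same cells the difference was 0.51 cycles and the runs overlapped, at -6.12 in the first Rag1-/- run and -5.99 in the third B6 DN1d run. Over all cells, undetected ones included, the mean level of Bhlhe40 was 5.58 ± 0.87 cycles in Rag1-/- and 1.66 ± 0.56 in B6 DN1d cells (SD, n = 3 runs each), so most of the group difference lay in how many cells had Bhlhe40 and little in how much a detected cell had.

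Cdh1 followed the same order of groups at lower shares. It was detected in 41 of 89, 19 of 52 and 21 of 82 Rag1-/- cells, or 46.1%, 36.5% and 25.6%, and in 5 of 72, 9 of 70 and 18 of 81 B6 DN1d cells, or 6.94%, 12.9% and 22.2%. The mean over runs was 36.1% ± 10.2 (SD, n = 3) in Rag1-/- and 14% ± 7.70 (SD, n = 3) in B6 DN1d cells. The runs did not overlap, as for Bhlhe40 and the other assays named above. The lowest Rag1-/- run and the highest B6 DN1d run were only a few percentage points apart. In that Rag1-/- run 9 of the 21 detections had a level of 2 cycles or less, against 0 of 18 in that B6 DN1d run. With detection at Ct below 22 the runs of the 2 groups would therefore overlap. DN2 cells had Cdh1 in 20 of 78 cells, 25.6% (95% exact binomial interval 16.4 to 36.8), the same share as the lowest Rag1-/- run. Tcrd-/- DN1d cells had it in 7 of 86 cells, 8.14% (3.34 to 16.1), an interval that held 2 of the 3 B6 DN1d runs. Without the 10% of Tcrd-/- cells with the fewest assays the share was 1.28%. Of the 3 Rag1-/- runs 2 lay inside the DN2 interval and 1 above it. The DN2 interval also held the highest B6 DN1d run.

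The level of Cdh1 in detected cells, unlike that of Bhlhe40, moved by several cycles between runs of the same group. It was 7.13, 4.04 and 9.18 cycles in the B6 DN1d runs and 7.51, 4.62 and 3.04 cycles in the Rag1-/- runs. The runs of the 2 groups overlapped fully, at 6.78 ± 2.59 and 5.06 ± 2.26 cycles (SD, n = 3 runs each), and the level was 3.59 in DN2 and 6.40 in Tcrd-/- cells. The range of run means was 4.47 cycles in Rag1-/- cells, the widest of 33 assays detected in at least 5 cells of every run there, against a median range of 0.68. In B6 DN1d cells it was 5.14 cycles, second of 42 assays behind Tbx21, against a median of 1.52. Bhlhe40 had ranges of 0.31 and 0.89 cycles in the same groups, places 29 of 33 and 40 of 42. Near the ceiling, 9 of the 21 Cdh1 detections of the third Rag1-/- run had a level of 2 cycles or less, as did 5 of 20 in DN2, 2 of 19 in the second Rag1-/- run and 1 of 9 in the second B6 DN1d run, against 1 Bhlhe40 detection in all.

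**Figure D1:**
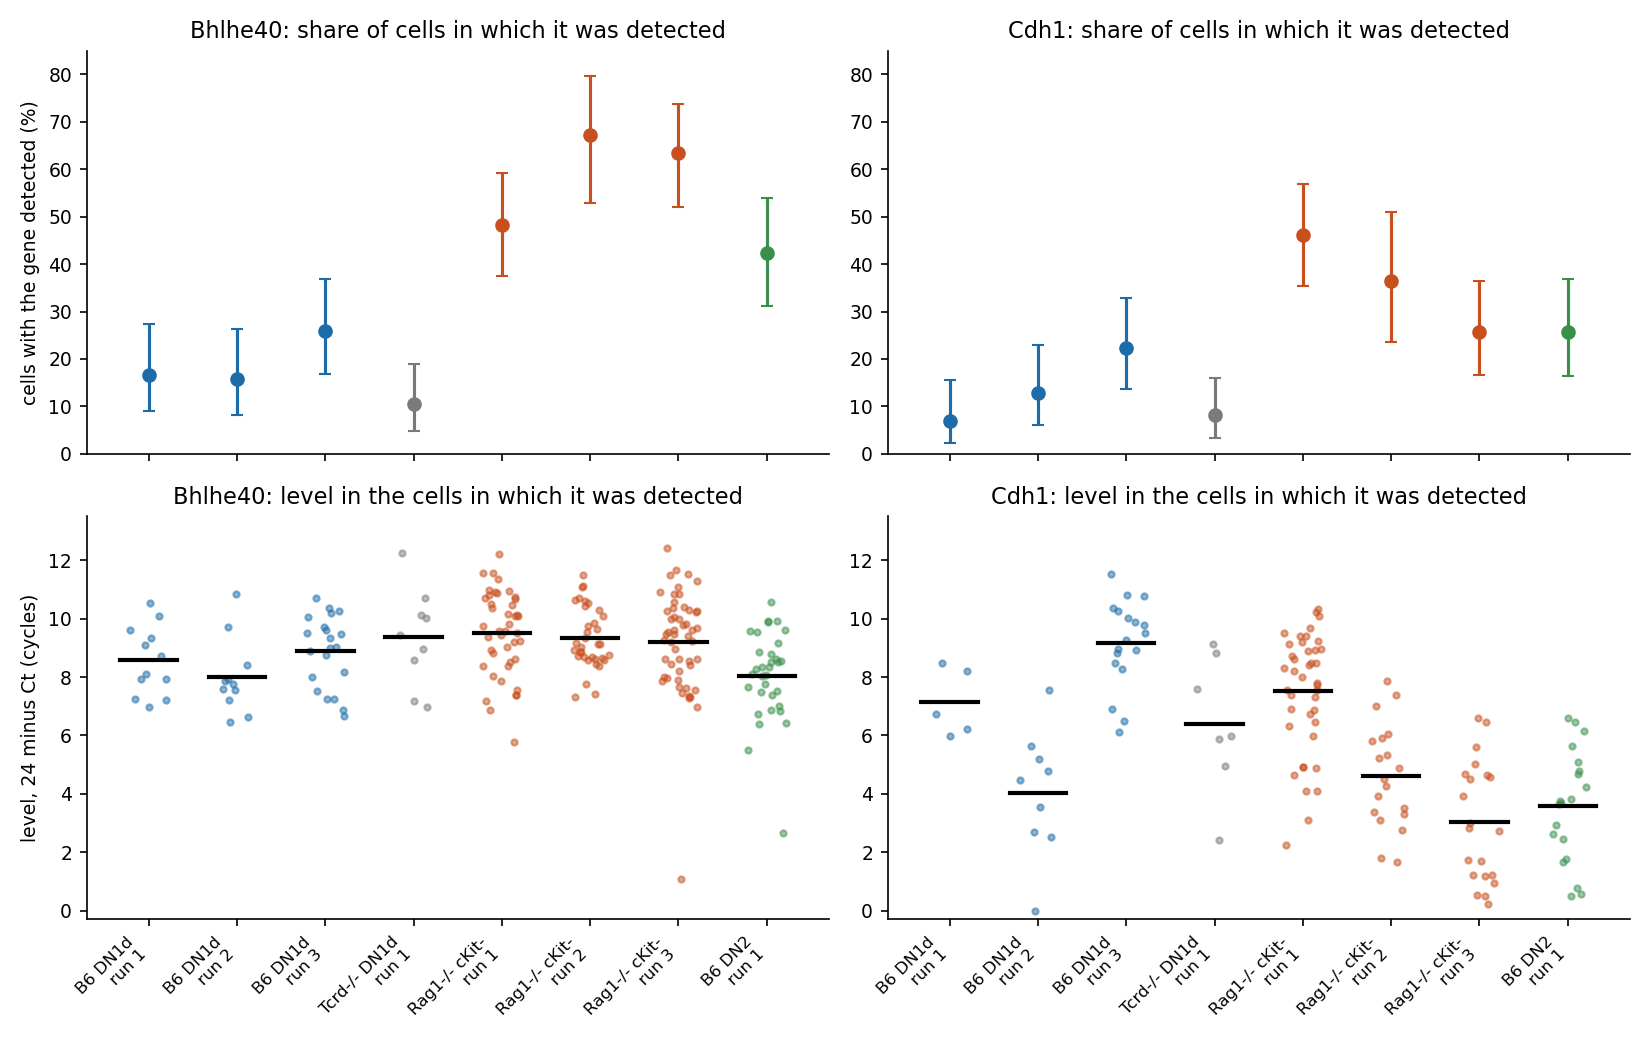
Share of cells (top, %, with the 95% exact binomial interval) and level in detected cells (bottom, 24 minus Ct, cycles; 1 point per cell, black line the run mean) of Bhlhe40 (left) and Cdh1 (right) in each of the 8 runs. Bhlhe40 sits near the same level in every run, at means of 8.0 to 9.52 cycles, while Cdh1 run means spread from 3.04 to 9.18 cycles.

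Over the 8 runs, the share of cells with Bhlhe40 was most like that of Il7r, the IL-7 receptor chain (Pearson r = 0.92 and Spearman rho = 0.79 on the logit of the shares), then Id2, an inhibitor of helix-loop-helix factors (r = 0.86, rho = 0.76), then Cdh1 (r = 0.85, rho = 0.81). For Cdh1 the nearest were Bhlhe40, Il7r (r = 0.815, rho = 0.74) and Tbx21, the T-bet factor of type 1 lymphocytes (r = 0.78, rho = 0.64). These values describe 8 points from 4 populations, and runs of 1 population share its sort and age.

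Bhlhe40 and Cdh1 were found in the same cells of B6 DN1d and Rag1-/- more often than their shares alone would give. Both were detected in 16 of 223 B6 DN1d cells, a mean over runs of 7.08% where the product of the 2 shares was 2.98%, and in 63 of 223 Rag1-/- cells, 28.7% against 21%. In DN2 the count was 6 of 78 cells, 7.69% against a product of 10.8%. This link was measured as the natural log odds ratio of detection, 1 value per run, where 0 means no link. It was 1.36, 2.95 and 1.11 in the B6 DN1d runs and 1.73, 1.77 and 1.07 in the Rag1-/- runs, all 6 above 0, and both means passed the test that follows (adjusted p = 0.00778 and 0.0227 among the partners of Bhlhe40). The B6 DN1d call was lost with the number of other assays detected in the model, and without the second run. The Rag1-/- call was lost without the first or the second run. Among the partners of Cdh1 the B6 DN1d call was also lost without the first run, and the Rag1-/- call when any run was left out. The difference between the B6 DN1d and Rag1-/- groups was -0.29 (SE 0.56, adjusted p = 0.718), which does not show that the links are equal. In DN2 cells the value was -0.67, with Cdh1 in 6 of 33 cells with Bhlhe40 and in 14 of 45 without. In Tcrd-/- DN1d cells it was 2.17, from 3 cells with both. In each Rag1-/- run the Bhlhe40 level was higher in cells that also had Cdh1, at 9.88, 9.60 and 10.1 cycles, than in cells with Bhlhe40 alone, at 8.77, 9.09 and 8.80. This order held in some runs of the other groups and not in others. The Bhlhe40 level with and without Cdh1 was 7.10 and 8.86, 8.60 and 7.28, and 9.39 and 8.58 cycles in the 3 B6 DN1d runs, from 2, 6 and 8 cells with both. It was 8.56 and 9.76 in Tcrd-/- DN1d and 8.06 and 8.04 in DN2 cells.

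Each of the other assays detected in 5% to 95% of the cells of a group was then tested as a partner by the same log odds ratio (limma over runs, Benjamini-Hochberg adjustment over all partners of a gene in a comparison, threshold 0.05). A partner is called more or less frequent in cells with the gene only where it passed.

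In B6 DN1d cells with Bhlhe40, myeloid genes were more frequent and most tested genes of the Tgd17 programme less frequent than in the other cells, although 23 of the 44 cells had none of the 4 myeloid assays and 19 had Maf, a Tgd17 factor. Of 40 partners, 19 passed (47.5%), 5 of them more frequent with Bhlhe40 (12.5%) and 14 less frequent (35%). The 5 were Gp49a and Csf2rb2, receptor genes of myeloid cells, Spi1, the PU.1 factor of myeloid and early progenitor cells, Gpr183, an oxysterol-guided migration receptor, and Cdh1. Gp49a had a mean log odds ratio of 2.33 (SE 0.48, adjusted p = 0.00303) and Csf2rb2 1.83 (SE 0.45, adjusted p = 0.00749). Gpr183 was detected in 7 of 12, 7 of 11 and 14 of 21 cells with Bhlhe40 and in 16 of 60, 16 of 59 and 22 of 60 other cells, higher in all 3 runs (1.33, SE 0.38, adjusted p = 0.0152).

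Of the Tgd17 programme (11 assays, 9 tested), 7 were less frequent with Bhlhe40 and 0 more frequent, with a median log odds ratio of -1.86 against -0.55 over all 40 partners. Sox13, a SOX factor required for Tgd17 cells, was detected in 1 of 12, 1 of 11 and 1 of 21 cells with Bhlhe40 and in 35 of 60, 30 of 59 and 25 of 60 other cells (-2.21, SE 0.38, adjusted p = 0.0025). Blk, a Src family kinase of these cells, was detected in 0 of 12, 0 of 11 and 2 of 21 against 31 of 60, 29 of 59 and 17 of 60 (-2.51, SE 0.48, adjusted p = 0.0025). The receptors Cd163l1 (-2.16) and Il17re (-1.43) and the factors Etv5 (-1.86) and Maf (-1.20) passed in the same direction. So did both tested junction assays, Vg2-Jg1 (-1.46) and Vd4-Jd1 (-1.11), which read rearranged gamma and delta receptor genes. Vg2-Jg1 was in 7 of 44 cells with Bhlhe40 and 85 of 179 others. Vd4-Jd1 was in 0 of 44 and 16 of 179, so its value rests on the 0.5 added to each count. The Vd4-Jd1 call was lost under 8 alternative settings, among them 1 added to each count, and the Vg2-Jg1 call under 3. Gzma, which encodes the protease granzyme A, was detected in 0 of the 44 B6 DN1d cells with Bhlhe40, which allows a share of up to 6.82%, and in 11 of 60, 16 of 59 and 8 of 60 other cells (-1.96, SE 0.38, adjusted p = 0.0025). The homing receptor Ccr9 (-2.19), the progenitor factor Myb (-2.03), Tcf7 (-1.23) and the E protein Tcf12 (-1.19) were also less frequent. Of the 4 cell cycle and replication assays 0 passed in limma, with 0 at an unadjusted p under 0.05.

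Cells with Bhlhe40 also had fewer other assays detected, at 16.2, 16.9 and 17.3 in the 3 B6 DN1d runs against 20.9, 20.1 and 19.5 in other cells. With that number in the model (Firth logistic regression per run, then limma), 0 of 40 partners passed and 11 had an unadjusted p under 0.05. Without the second run 11 partners passed and without the third 12.

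Myeloid genes were also more frequent in B6 DN1d cells with Cdh1. Of 40 partners, 20 passed (50%), 5 more frequent (12.5%) and 15 less frequent (37.5%). Gp49a was detected in 5 of 5, 9 of 9 and 14 of 18 cells with Cdh1 and in 3 of 67, 2 of 61 and 4 of 63 cells without (5.06, SE 0.56, adjusted p = 0.0011). Csf2rb2 was detected in 5 of 5, 7 of 9 and 15 of 18 against 3 of 67, 2 of 61 and 2 of 63 (4.76, SE 0.45, adjusted p = 0.000761). Spi1 was detected in 1 of 5, 3 of 9 and 7 of 18 against 1 of 67, 1 of 61 and 3 of 63 (2.73, SE 0.43, adjusted p = 0.0059). For each of these genes every run was higher with Cdh1. Cpa3 (2.00, SE 0.41) and Bhlhe40 (1.81, SE 0.52) were the other 2.

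Among the genes less frequent in B6 DN1d cells with Cdh1 were several of the T lineage. Tcf7 was detected in 0 of 5, 2 of 9 and 0 of 18 cells with Cdh1 and in 45 of 67, 39 of 61 and 49 of 63 others (-3.20, SE 0.65, adjusted p = 0.011). Tox, a factor of T and innate lymphoid development, was detected in 0 of 5, 3 of 9 and 0 of 18 against 39 of 67, 39 of 61 and 50 of 63 (-2.95, SE 0.72, adjusted p = 0.0179). The second run held all 5 of these detections. Lef1, the relative of Tcf7, was also less frequent (-2.59), as were Sox13 (-2.50), Myb (-2.48), Ccr9 (-2.27), Tcf12 (-2.26), Blk (-2.22), Etv5 (-2.13), the E protein assay Tcf3 E47 (-2.02), the Hedgehog receptor component Smo (-1.90), Cd163l1 (-1.67), Il17re (-1.59) and Gzma (-1.49). Of the 9 tested Tgd17 assays, 6 were less frequent and 0 more frequent. Gzma was in 0 of 32 cells with Cdh1, which allows a share of up to 9.38%. Cells with Cdh1 again had fewer other assays detected, 15.2, 17.4 and 13.8 against 20.6, 20.0 and 20.5, and with that number in the model 7 of 40 partners passed, Gp49a, Csf2rb2, Spi1, Cpa3, Tcf7, Sox13 and Myb.

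All 4 assays of the myeloid and dendritic list were in the panel. At least 1 was detected in 30 of the 32 B6 DN1d cells with Cdh1 (5 of 5, 9 of 9 and 16 of 18 by run) and in 14 of the 191 others, and in Tcrd-/- DN1d in 7 of 7 cells with Cdh1 and 1 of 79 others. The summed level of the 4 assays ran from 0 to 33.9 cycles, median 20.6, in B6 DN1d cells with Cdh1, and had a median of 0 in the others. Of the list, Csf1r, the macrophage growth factor receptor, was detected in 0 of 223 B6 DN1d cells. For Bhlhe40 the same share was 21 of 44 cells against 23 of 179. In Rag1-/- cells, 2 of 81 cells with Cdh1 and 2 of 130 with Bhlhe40 had any of the 4. In DN2, where Spi1 was in 63 of 78 cells, the shares were alike with and without each gene, 15 of 20 against 48 of 58 for Cdh1. No B cell or thymic epithelial marker of the lists used was in the panel.

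**Figure D2:**
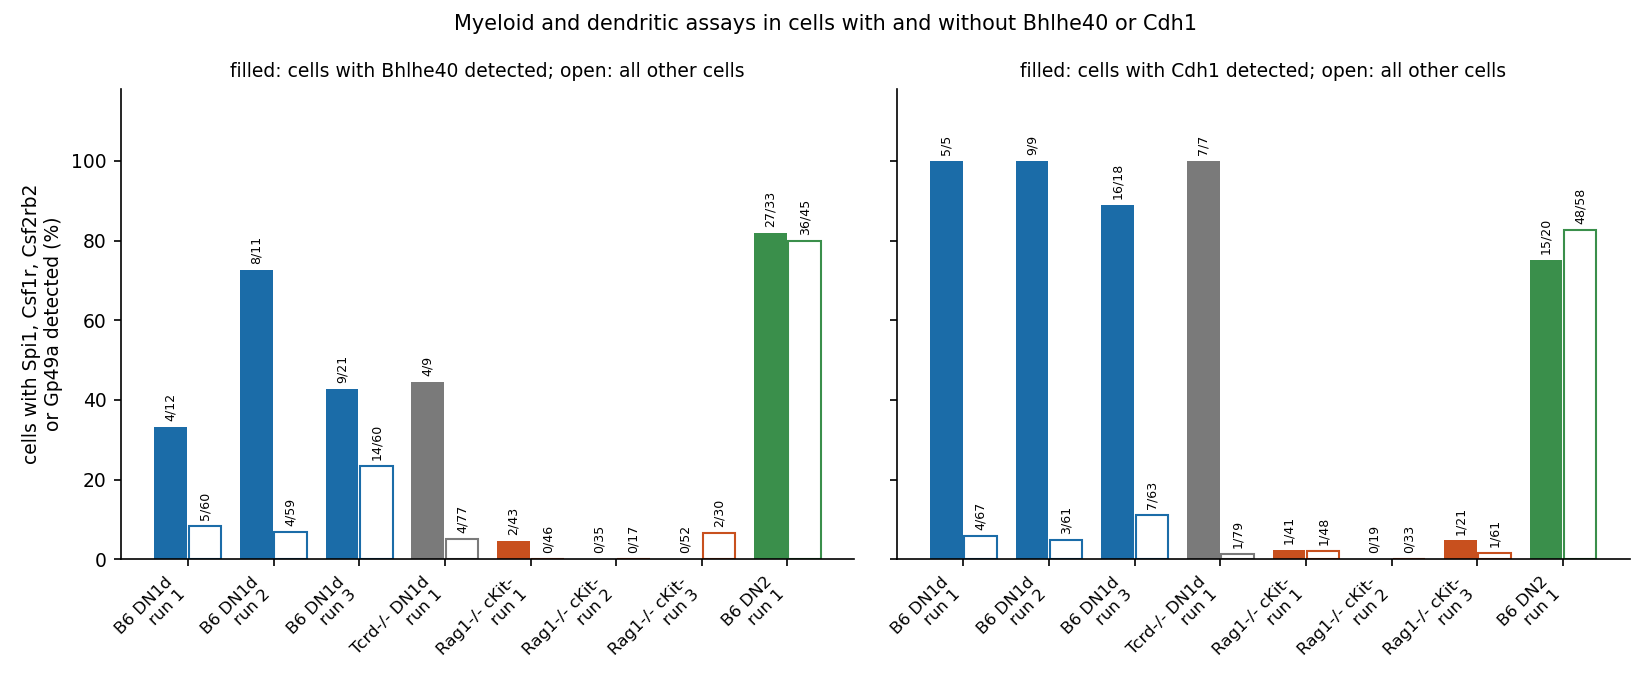
Share of cells (%) with at least 1 of the 4 myeloid and dendritic assays, by run, in cells with Bhlhe40 (left, filled) or Cdh1 (right, filled) and in the other cells of the run (open), with counts above the bars. In DN1d runs of both genotypes 88.9% to 100% of cells with Cdh1 have one, and in Rag1-/- runs at most 4.76%.

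When cells with any myeloid or dendritic assay were left out, 23 B6 DN1d cells with Bhlhe40 and 2 with Cdh1 remained, too few for Cdh1, so the part of these genes in the partners of Cdh1 there was not tested. The cells with Bhlhe40 were 8, 3 and 12 by run. Among these cells 11 of 36 partners of Bhlhe40 passed. Less frequent were Sox13 (-2.53), Blk (-2.22), Myb (-2.12), Cd163l1 (-2.05), Vg2-Jg1 (-2.03), Etv5 (-1.85), Ccr9 (-1.82) and Gzma (-1.42). More frequent were Il7r (1.79, SE 0.53, adjusted p = 0.00523) and Zbtb16, the PLZF factor of innate-like lymphocytes (1.36, SE 0.53, adjusted p = 0.0436), neither of which had passed with all cells in. This setting was chosen after the data were seen.

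In Rag1-/- cKit- cells the partners were of another kind. Of 30 partners of Bhlhe40, 5 passed (16.7%), 3 more frequent (10%) and 2 less frequent (6.67%). Syk, the kinase that couples antigen and activating receptors to signalling, was detected in 23 of 43, 23 of 35 and 31 of 52 cells with Bhlhe40 and in 5 of 46, 2 of 17 and 8 of 30 others (1.99, SE 0.32, adjusted p = 0.0227). Gzma was detected in 29 of 43, 21 of 35 and 27 of 52 against 13 of 46, 4 of 17 and 6 of 30 (1.5, SE 0.25, adjusted p = 0.0227). Both were higher in all 3 runs. Cdh1 was the third, and among the less frequent was Il17re, in 6 of 43, 7 of 35 and 17 of 52 against 21 of 46, 8 of 17 and 18 of 30 (-1.30, SE 0.26, adjusted p = 0.0244). These calls rest on 3 runs. Without the first or the second run 0 of 30 passed in limma, with 9 and 10 at an unadjusted p under 0.05, and without the third 8 passed. With the number of other assays in the model 11 passed, among them Syk, Gzma and Cdh1.

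Cdh1 had more partners in these cells, 14 of 30 (46.7%), 5 more frequent (16.7%) and 9 less frequent (30%). Syk was detected in 20 of 41, 13 of 19 and 19 of 21 cells with Cdh1 and in 8 of 48, 12 of 33 and 20 of 61 others (1.85, SE 0.39, adjusted p = 0.00253). Gzma was detected in 30 of 41, 12 of 19 and 16 of 21 against 12 of 48, 13 of 33 and 17 of 61 (1.67, SE 0.37, adjusted p = 0.00274). Bhlhe40 (1.52), the receptor Notch1 (1.14) and Tcf3 E47 (1.09) were the other 3.

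The lowest log odds ratio in Rag1-/- cells with Cdh1 was that of Runx1, a core factor of T and innate lymphoid development, detected in 11 of 41, 8 of 19 and 10 of 21 cells with Cdh1 and in 43 of 48, 28 of 33 and 53 of 61 without (-2.31, SE 0.37, adjusted p = 0.000595). Il17re was in 5 of 41, 1 of 19 and 2 of 21 against 22 of 48, 14 of 33 and 33 of 61 (-2.05, SE 0.35, adjusted p = 0.000617). Zbtb16 was in 19 of 41, 2 of 19 and 10 of 21 against 40 of 48, 22 of 33 and 46 of 61 (-1.84, SE 0.38, adjusted p = 0.00253). All 3 were lower in every run. Bcl11b, the T commitment factor (-1.56), Blk (-1.53), Ccr9 (-1.48), Sox13 (-1.41) and Maf (-1.32) also passed. Of the 9 tested Tgd17 assays 5 were less frequent and 0 more frequent, with a median of -1.32 against -0.12 over all 30 partners. Without the first run 3 partners passed, and without the second or the third 0 passed in limma, with 14 and 12 at an unadjusted p under 0.05. The number of other assays detected was close in Rag1-/- cells with and without Cdh1, 22.2, 20.9 and 23.5 against 24, 21.4 and 24.2, and with it in the model 16 of 30 passed.

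Of the innate lymphoid list, 6 of 7 could be tested in B6 DN1d, where 1 was less frequent with Bhlhe40 and 2 with Cdh1, and 4 in Rag1-/-, where 0 passed for Bhlhe40 (limma, 2 at an unadjusted p under 0.05) and 1, Zbtb16, was less frequent with Cdh1. Of the T lineage list, 5 could be tested in B6 DN1d, with 1 less frequent for Bhlhe40, Tcf7, and 2 for Cdh1, Tcf7 and Lef1. In Rag1-/- cells 4 could be tested, and with Cdh1 1 was more frequent, Notch1, and 2 less, Bcl11b and Runx1. Both mast cell and progenitor assays of the panel, Cpa3 and Myb, were tested in B6 DN1d, where Cpa3 was more and Myb less frequent with Cdh1. The homing list had 2 assays, Ccr9 and Gpr183, and the effector list Gzma and Tbx21. Tbx21 did not pass for either gene in B6 DN1d or for DN2 minus B6. In Rag1-/- cells it was detected in 213 of 223, above the 95% limit, so it was not tested there. With Cdh1 in B6 DN1d the junction assays had values of -1.78 for Vg2-Jg1 (SE 0.73, adjusted p = 0.0819, limma) and -0.65 for Vd4-Jd1 (SE 0.45, adjusted p = 0.271), and the difference from Bhlhe40 was not tested. In Rag1-/- cells 0 of 3 were in enough cells to test.

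Within a group the 2 genes shared partners, and some of their cells were the same. In B6 DN1d, leaving the pair itself out, 3 partners were more frequent with both genes, Gp49a, Csf2rb2 and Spi1, 75% of the 4 of each, and 11 were less frequent with both, 78.6% of those of Bhlhe40 and 73.3% of those of Cdh1. In Rag1-/- cells, Gzma and Syk were more frequent with both, 100% of the list of Bhlhe40 and 50% of that of Cdh1.

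Sorting Rag1-/- cells by which of the 2 genes they had showed how the partners were spread. Gzma was detected in 76.2% of the 63 cells with both, 43.3% of the 67 with Bhlhe40 only, 55.6% of the 18 with Cdh1 only and 17.3% of the 75 with neither. Syk was detected in 73%, 46.3%, 33.3% and 12.0% of the same classes. Runx1 was detected in 38.1% of cells with both and 27.8% with Cdh1 only, but in 83.6% with Bhlhe40 only and 90.7% with neither, so the low shares were in the classes with Cdh1. Zbtb16 was detected in 36.5%, 67.2%, 44.4% and 84%, and Il17re in 9.52%, 35.8%, 11.1% and 60.0%. Gpr183 was lowest with both, at 52.4%, and highest with neither, at 85.3%. In B6 DN1d cells, Gp49a was detected in 93.8% of the 16 cells with both, 21.4% of the 28 with Bhlhe40 only, 81.3% of the 16 with Cdh1 only and 1.84% of the 163 with neither. Tcf7 was detected in 6.25%, 57.1%, 6.25% and 71.8%, and Tox in 12.5%, 57.1%, 6.25% and 68.7%. Sox13 differed in its pattern, at 6.25%, 7.14%, 0% and 55.2%, low in cells with either gene. These are pooled cells and carry no test.

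**Figure D3:**
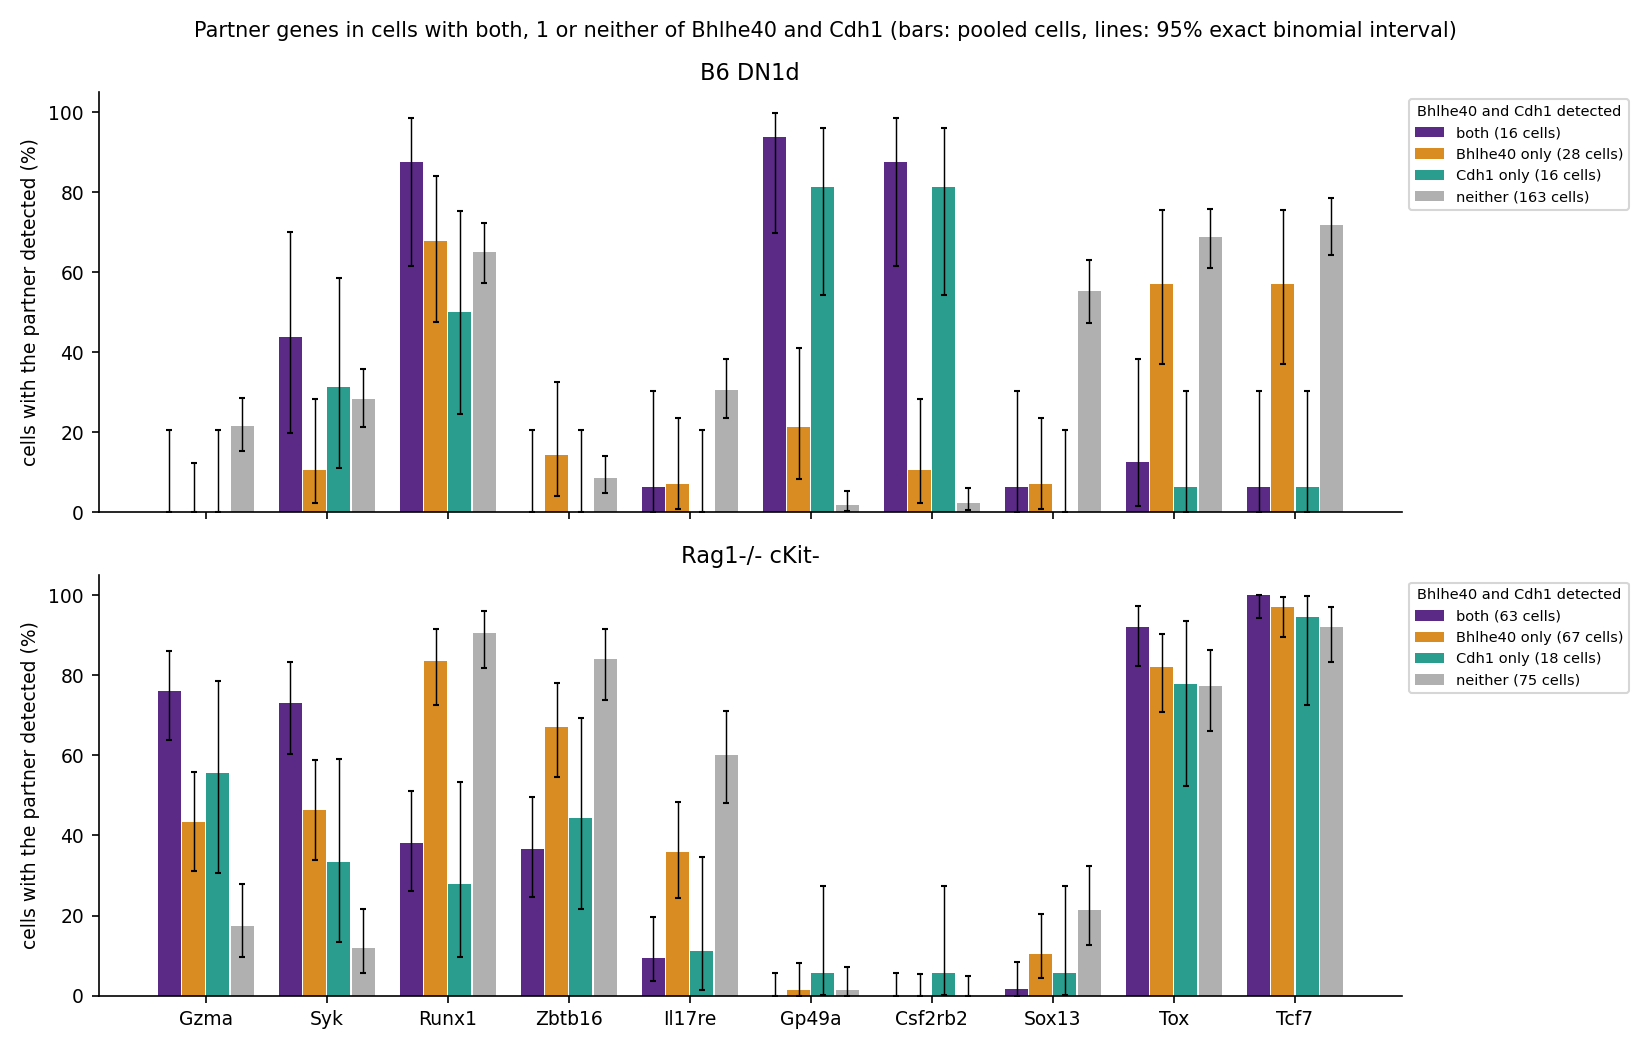
Share of pooled cells (%, lines are 95% exact binomial intervals, which cover counting error only) with each of 10 partner genes detected, in cells with both, 1 or neither of Bhlhe40 and Cdh1, in B6 DN1d (top) and Rag1-/- cKit- (bottom). Gp49a and Csf2rb2 mark cells with Cdh1 in B6 DN1d and are near 0 in Rag1-/-, where Gzma and Syk are highest in cells with both genes.

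The change of partners between B6 DN1d and Rag1-/- cells was tested as the difference of the log odds ratios, Rag1-/- minus B6. For Bhlhe40, 8 of 29 partners passed (27.6%), 5 with a higher value in Rag1-/- (17.2%) and 3 with a lower one (10.3%). Gzma differed most, from -1.76, -2.17 and -1.94 in the B6 DN1d runs to 1.62, 1.49 and 1.40 in the Rag1-/- runs, a difference of 3.46 (SE 0.45, adjusted p = 9.17e-05). Its B6 DN1d values rest on a count of 0 in each run, with 0.5 added. Myb (3.01, SE 0.84), Syk (2.76, SE 0.69), Tcf12 (1.97, SE 0.48) and Tox (1.93, SE 0.54) were the other 4. For Myb the Rag1-/- values rest on 14 cells. Gpr183 went the other way, from 1.30, 1.48 and 1.20 to -1.29, -0.19 and -1.35, a difference of -2.27 (SE 0.49, adjusted p = 0.00689). Runx1 (-1.51, SE 0.46) and Zbtb16 (-1.50, SE 0.50) were the other 2. For Myb 1 Rag1-/- run lay among the B6 values. Without the second Rag1-/- run 2 differences passed, and without the first B6 DN1d run 4. With the number of other assays in the model 6 of 29 passed, and Tox and Tcf12 no longer did.

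For Cdh1, 7 of 29 differences passed (24.1%), 5 higher in Rag1-/- (17.2%) and 2 lower (6.9%). Tox went from -2.72, -1.18 and -4.93 in B6 DN1d to 0.05, 0.60 and 0.96 in Rag1-/- runs (3.48, SE 0.77, adjusted p = 0.0015). Gzma went from -0.81, -1.93 and -1.73 to 2.05, 0.93 and 2.03 (3.16, SE 0.64, adjusted p = 0.0015), and its B6 DN1d values again rest on counts of 0. Tcf3 E47 (3.11, SE 0.68), Tcf12 (2.89, SE 0.73) and Notch1 (1.70, SE 0.61) were also higher. Of the 3 helix-loop-helix assays that could be compared 2 passed, Tcf3 E47 and Tcf12, both E protein genes. Runx1 was lower, from 0.33, 1.24 and -0.40 to -3.04, -1.95 and -1.93 (-2.70, SE 0.65, adjusted p = 0.00318), and Gpr183 differed by -2.05 (SE 0.68, adjusted p = 0.0299). With the number of other assays in the model 4 of 29 passed, Tox, Runx1, Tcf3 E47 and Tcf12. The myeloid assays could not be compared, since they were in too few Rag1-/- cells.

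When the cells with a myeloid or dendritic assay were left out of both groups, 6 of 29 differences passed for Bhlhe40. They were Gzma (2.95), Myb (3.09), Syk (3.08), Tcf12 (1.66), Zbtb16 (-2.46) and Gpr183 (-2.18), each in the same direction as with all cells in.

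**Figure D4:**
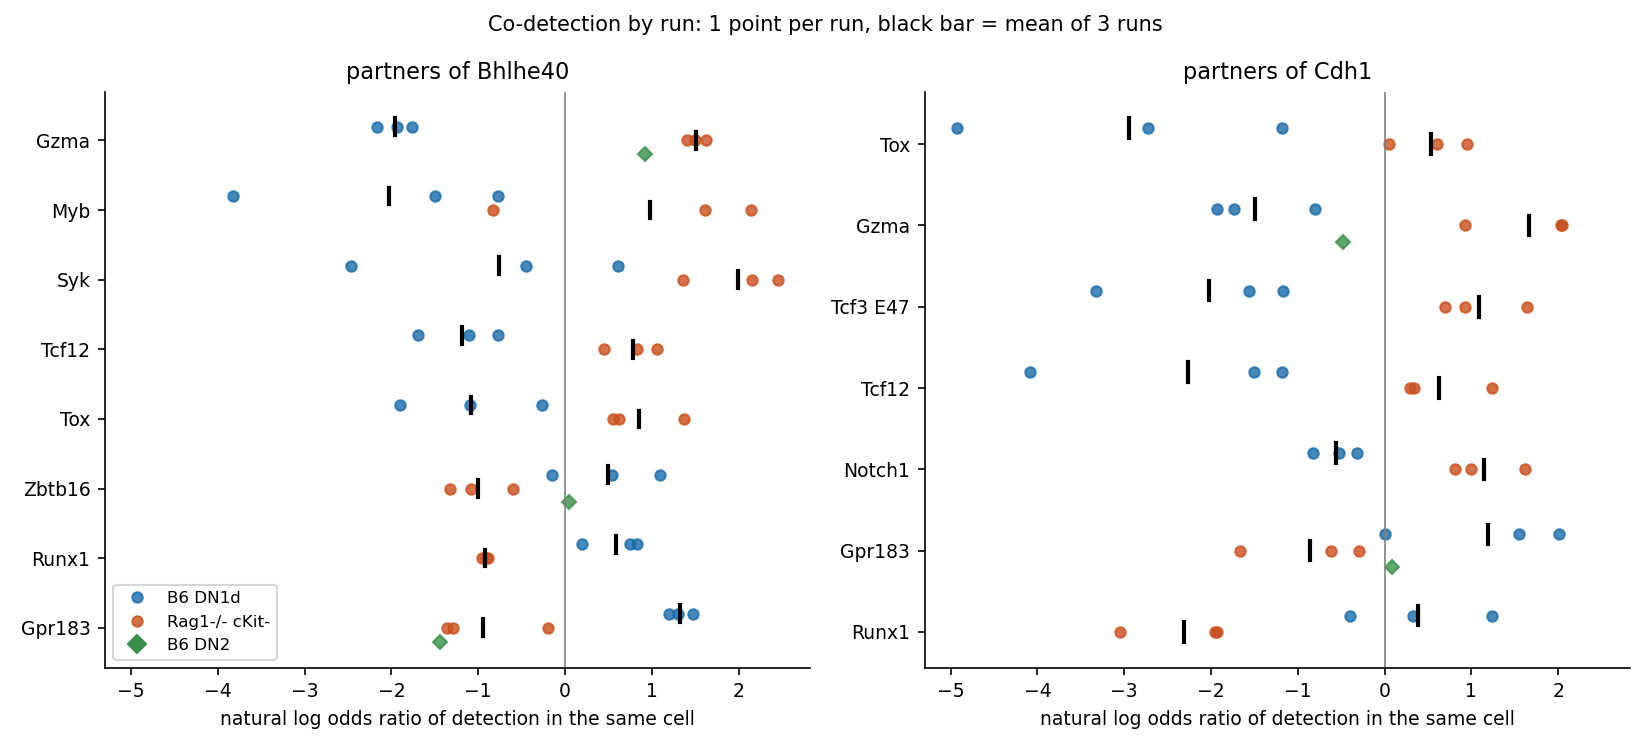
Natural log odds ratio of detection in the same cell with Bhlhe40 (left) and Cdh1 (right), 1 point per run, black bars the means of 3 runs, for the partners whose value differed between Rag1-/- cKit- and B6 DN1d cells. Gzma sits below 0 in all 3 B6 DN1d runs and above 0 in all 3 Rag1-/- runs for both genes, and the B6 DN2 run (diamond) is drawn where the partner could be tested there.

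DN2 cells gave 1 run, which is assumed to vary like the runs of the other groups, and 20 partners could be compared with B6 DN1d. For Bhlhe40 8 differences passed (40%), 6 higher in DN2 (30%) and 2 lower (10%). Gzma was detected in 15 of 33 DN2 cells with Bhlhe40 and 11 of 45 without, a log odds ratio of 0.92, and differed from B6 DN1d by 2.88 (SE 0.64, adjusted p = 0.00624). Dna2, a replication nuclease, was detected in 33 of 33 against 38 of 45, and differed by 2.52 (SE 0.68, adjusted p = 0.011). Etv5 (2.19), Sox13 (2.09), Il17re (2.01) and Maf (1.88) were also higher, 4 of the 6 tested Tgd17 assays. Sox13 was in 29 of 33 DN2 cells with Bhlhe40 and 40 of 45 without (-0.12), a value near 0 beside the -2.21 of B6 DN1d. Gpr183, in 1 of 33 against 7 of 45, differed by -2.77 (SE 0.69, adjusted p = 0.00848), and Cdh1 by -2.47 (SE 0.76, adjusted p = 0.0232). Without the second B6 DN1d run 3 of the 20 passed, and with the number of other assays in the model 1, Gpr183.

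For Cdh1 in DN2, 4 of 20 differences passed (20%), 2 higher (10%) and 2 lower (10%). Sox13 was detected in 19 of 20 DN2 cells with Cdh1 and 50 of 58 without (difference 3.29, SE 0.92, adjusted p = 0.00784), and Blk in 4 of 20 against 6 of 58 (3.01, SE 0.92, adjusted p = 0.011). Spi1, in 15 of 20 against 48 of 58, differed by -3.23 (SE 0.92, adjusted p = 0.00784), and Bhlhe40 by -2.47 (SE 0.92, adjusted p = 0.045). Syk, Runx1, Myb and Tcf7 were in all 78 DN2 cells, so no link with either gene could be read there. With the number of other assays in the model 0 of 20 passed in limma, with 2 at an unadjusted p under 0.05. The B6 DN1d runs serve both the Rag1-/- and the DN2 comparison.

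The single Tcrd-/- DN1d run is given without a test. Of its 7 cells with Cdh1, 7 had Gp49a and 6 had Csf2rb2, against 1 and 0 of 79 others, while Tox was in 0 of 7 against 79 of 79 and Tcf7 in 1 of 7 against 78 of 79. These cells had 19.7 other assays detected on average against 31.8 in the rest. Of the 9 cells with Bhlhe40, Sox13 was in 7 against 76 of 77, Blk in 3 against 74 of 77 and Gzma in 2 against 63 of 77. The Tcrd-/- log odds ratios lay on the same side of 0 as the B6 DN1d means for each of these genes.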

How the data were processed

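Single-cell RT-PCR on the C1 platform gave a Ct for 48 assays in 610 cells (29280 values). Per the labels' protocols, the authors ran 18 cycles of preamplification and 30 cycles of quantitative PCR with EvaGreen. The deposited Ct values are not normalized and run from 6.01 to 24, with 50.5% at exactly 24. The rule for calling Ct, not given in the sources used here, and the ceiling of 24 were taken as they stand. All 610 cells differed in their values. The number of cells limits the precision.

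A gene was detected when Ct was below 24, and its level was 24 minus Ct. Co-detection was the natural log odds ratio per run, with 0.5 added to each table cell, for partners detected in 5% to 95% of the cells of each group compared. It was tested with limma 3.58.1 in R 4.3.3 (lmFit, eBayes) in 8 families, each adjusted by Benjamini-Hochberg. DN2 was fitted with the B6 DN1d and Rag1-/- runs. Adding 0.5 means that a log odds ratio with a count of 0 is no bound. The procedure was tested on simulated data. Python 3.11.15 and scipy 1.17.1 gave counts and exact binomial intervals, which cover counting error only.

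All partners past the threshold are named, except that a further partner is not reported here, although counts include it. The genes, lists and rules were chosen with earlier results of these data known, and a list is described by counts, not by a test. The lists were innate lymphoid, Tgd17 programme, helix-loop-helix, T lineage, cell cycle and replication, homing and adhesion, effector, receptor junctions, and markers of myeloid and dendritic cells, mast cells and early progenitors, B cells and thymic epithelium. Alternatives were Ct below 22, 1 added to each table cell, a 10% to 90% filter, the 10% of cells with the fewest assays left out, the number of other assays as a covariate, weighted runs, the partner's level, all 8 runs in 1 fit, and each run left out.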

Additional observations from a re-analysis of the deposited data

Results flagged for a closer look

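All results here are differences of co-detection between groups that passed the test of the difference itself (limma, Benjamini-Hochberg, threshold 0.05), on the natural log odds scale, and no explanation of them was weighed. Between Rag1-/- cKit- and B6 DN1d cells (Rag1-/- minus B6), Bhlhe40 differed with Gzma (3.46), Myb (3.01), Syk (2.76), Tcf12 (1.97), Tox (1.93), Zbtb16 (-1.50), Runx1 (-1.51) and Gpr183 (-2.27). Cdh1 differed with Tox (3.48), Gzma (3.16), Tcf3 E47 (3.11), Tcf12 (2.89), Notch1 (1.70), Gpr183 (-2.05) and Runx1 (-2.70). Both genes had opposite values with Gzma in the 2 groups, below 0 in all 3 B6 DN1d runs and above 0 in all 3 Rag1-/- runs.

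Between the single DN2 run and B6 DN1d (DN2 minus B6), Bhlhe40 differed with Gzma (2.88), Dna2 (2.52), Etv5 (2.19), Sox13 (2.09), Il17re (2.01), Maf (1.88), Cdh1 (-2.47) and Gpr183 (-2.77). Cdh1 differed with Sox13 (3.29), Blk (3.01), Bhlhe40 (-2.47) and Spi1 (-3.23). The log odds ratio of Bhlhe40 with Cdh1 was 1.81 in B6 DN1d and -0.67 in DN2.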

How the results depend on the processing

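With the number of other assays detected as a covariate, partners of Bhlhe40 past the threshold numbered 0 in place of 19 in B6 DN1d and 11 in place of 5 in Rag1-/-. They numbered 6 in place of 8 for Rag1-/- minus B6 and 1 in place of 8 for DN2 minus B6. For Cdh1 they numbered 7 in place of 20 in B6 DN1d, 4 in place of 7 for Rag1-/- minus B6 and 0 in place of 4 for DN2 minus B6. For Bhlhe40 in Rag1-/- the count was 9 with 1 added to each table cell, 13 without the 10% of cells with the fewest assays, 8 with the 10% to 90% filter, 16 with the difference in the partner's level, 9 with weighted runs and 9 without cells holding a myeloid assay, and that last setting gave 11 for Bhlhe40 in B6 DN1d. For Bhlhe40, DN2 minus B6, it was 3 without the 10% of cells with the fewest assays and 5 with weighted runs. For Cdh1, Rag1-/- minus B6, it was 15 with the level and 11 with Ct below 22. Leaving out 1 run at a time gave, for Bhlhe40, 11 to 14 in B6 DN1d, 0 to 8 in Rag1-/-, 2 to 8 for Rag1-/- minus B6 and 3 to 8 for DN2 minus B6, and for Cdh1 in Rag1-/- 0 to 3. Fewer runs leave fewer degrees of freedom, and otherwise the cause was not tested.

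No named partner past the threshold changed direction under the settings run. The difference between Bhlhe40 and Cdh1 as partners, Rag1-/- minus B6, which did not pass (-0.29), was 0.39 and 0.70 with the level of Cdh1 and of Bhlhe40, -0.64 to 0.28 with 1 run left out, 0.28 being without the second B6 DN1d run, and 0.12 with the covariate among the partners of Cdh1. The Bhlhe40 level difference of 0.87 cycles became 0.51 relative to Gapdh, and the Cdh1 share in Tcrd-/- cells 1.28% in place of 8.14% without the 10% of cells with the fewest assays. Ended by none of the settings run for them were the Rag1-/- minus B6 differences of Bhlhe40 with Gzma and Gpr183 and of Cdh1 with Tox, Tcf3 E47, Tcf12 and Runx1, and the DN2 minus B6 difference of Bhlhe40 with Gpr183. Within B6 DN1d, the same held for Cdh1 with Gp49a, Csf2rb2, Spi1, Tcf7, Sox13 and Myb. Leaving out cells with a myeloid assay could not be run for Cdh1 against B6 DN1d, where 2 cells with Cdh1 remained, and was not run for DN2. No paired analysis was possible because the runs carry no shared number. Small numbers of cells with each gene, 5 to 18 per B6 DN1d run for Cdh1, limit these values.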
